A study of Mus musculus with 16 samples.

Results

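The nuclear-encoded genes of oxidative phosphorylation were followed in male wildtype C3HeB/FeJ mice, an inbred strain, by comparing kidney with liver. Members were the genes whose symbol starts with Nduf (complex I), equals Sdha, Sdhb, Sdhc or Sdhd (complex II), starts with Uqcr or equals Cyc1 (complex III), equals Cycs (cytochrome c), starts with Cox4 to Cox8 (complex IV) or starts with Atp5 (complex V). Among 9669 genes named by probes with 1 symbol, 83 met this rule, with 92 probes. They comprised 40 genes of complex I, 2 of complex II, 9 of complex III, 15 of complex IV, 16 of complex V and the gene of cytochrome c. Of the 40 complex I genes, 7 are assembly factors and not subunits. Of the members, 75 had 1 probe, 7 had 2 and 1 had 3.

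The study used 16 cDNA arrays with 2 colours, each of which set a sample from a single mouse against a pool of 5 animals, always of opposite organs. Left kidney RNA of mice 1, 2 and 3 was hybridised with pooled liver RNA on 3, 3 and 1 arrays. RNA of the dorsal liver lobe of these 3 mice was hybridised with pooled kidney RNA on 3 arrays each. All mice were wildtype, kept free of specified pathogens, and 105 ± 5 days old. No treatment was given per the labels, and they do not describe the pooled animals beyond their number and organ. The first 7 are called kidney arrays and the other 9 liver arrays. Repeat hybridisations of one RNA were averaged, which left 6 averages (n = 3 mice per organ).

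Oxidative phosphorylation passes electrons from NADH through complex I, or from succinate through complex II, to ubiquinone, then through complex III and the small carrier cytochrome c to complex IV, which reduces oxygen. Complexes I, III and IV pump protons across the inner mitochondrial membrane, and complex V lets them flow back to make ATP. A few core subunits are encoded by mitochondrial DNA and all others by the nucleus. Both organs are rich in mitochondria: kidney tubules spend ATP mainly on ion transport, and hepatocytes on biosynthesis, urea formation and gluconeogenesis.

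All values are log2 ratios of kidney over liver, so that 1 is a 2-fold excess in kidney and negative values are higher in liver. This direction opposes the order in the array titles, which name the single sample before the pool. Deposited values of Alb, the liver's serum albumin, averaged 8.44 where the single sample was kidney and -7.57 where it was liver, and those of Kap, an androgen-regulated protein of the proximal tubule, had -5.77 and 6.08. The pool was therefore taken as the numerator. If the title order held instead, every word kidney and liver below would be exchanged. With the reading used, 8 of 8 hepatocyte markers were higher in liver (median -7.65), and 6 of 6 proximal tubule, 2 of 2 distal tubule and 3 of 3 collecting duct markers were higher in kidney.

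The arrays of mouse 2 stood apart. On the 10 arrays of mice 1 and 3 the median over all probes was within 0.00267 of 0, whereas on the 6 arrays of mouse 2 it lay between -1.49 and -1.19. This offset depended on how often a probe's ratio recurred exactly elsewhere on the same array, a sign of small whole-number intensities and so of weak signal. Probes that recurred on at most 10% of the arrays of mice 1 and 3 are called bright and those that recurred on more than 50% dim. For bright probes the array medians of mouse 2 lay between -0.15 and 0.090, and for dim probes between -1.72 and -1.45. Each array carried between 15480 and 19432 values, and raw intensities were not used. In a whole organ, fewer cells of a type and less RNA per cell cannot be told apart.

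As deposited, 13 of 81 tested members passed the threshold for a difference between the organs (limma, Benjamini-Hochberg adjusted p under 0.05 over 9047 genes). This fit took the averages as independent, although the same mice gave both organs. Higher in kidney were 9 members: Cox4i1, Cox5a, Cox7a1 and Cox8a of complex IV, Ndufa2, Ndufs1 and Ndufv1 of complex I, Sdhd of complex II and Atp5pb of complex V. Higher in liver were 4 members: Uqcrb and Uqcrq of complex III, the complex I subunit Ndufs6 and the complex I assembly factor Ndufaf6. The differences were 1.78-fold to 2.60-fold for the kidney genes and 1.89-fold to 2.24-fold for the liver genes. The kidney share was 11.1% of the tested members, against 5.56% of all genes tested, and the liver share was 4.94%, against 8.88%. The other 68 tested members were not called, and 38 of all 81 had estimates within 0.5 of 0. Atp5e, the epsilon subunit of the ATP synthase, and Cox8c, a testis isoform of complex IV, had values in too few mice for the test.

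**Figure D1:**
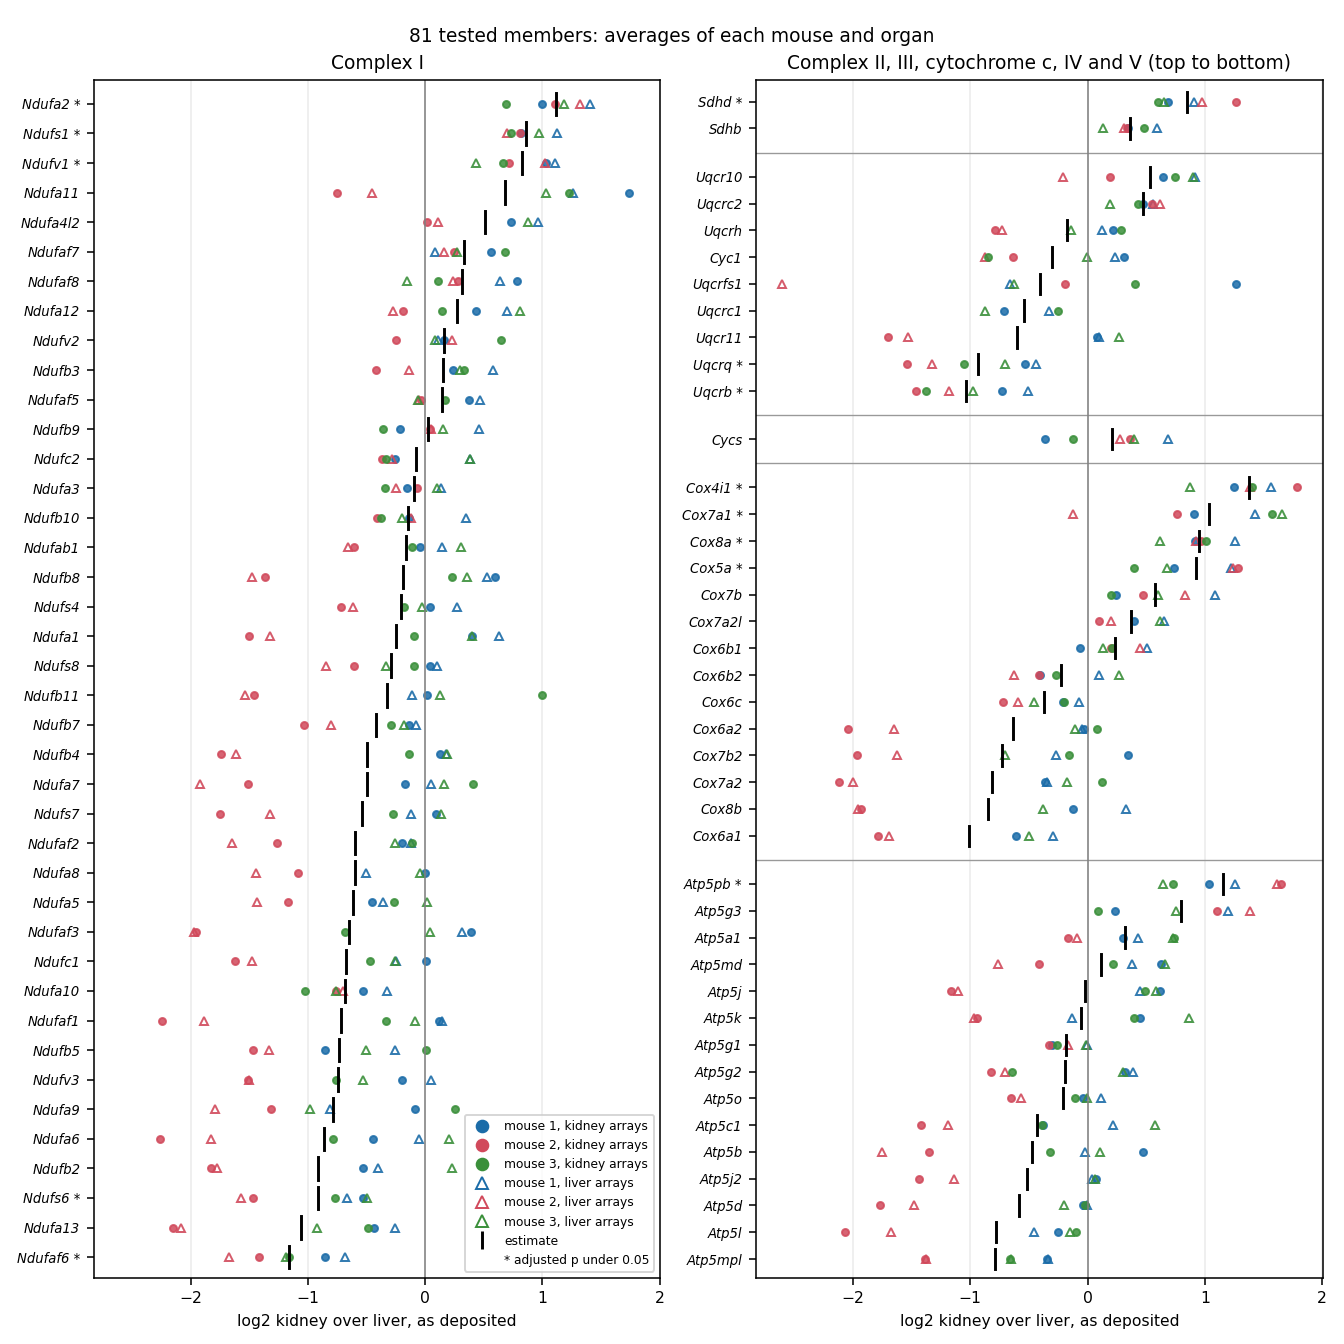
Log2 kidney over liver (x axis) of each of the 81 tested members (y axis), as deposited, with complex I on the left and complexes II, III, cytochrome c, IV and V on the right. Circles are averages of kidney arrays, triangles averages of liver arrays, colours mice 1 (blue), 2 (red) and 3 (green), vertical bars the estimates, and asterisks the 13 members with an adjusted p under 0.05. The red symbols of mouse 2 lie to the left of the others for most members, but not for members such as Cox4i1, Atp5pb and Sdhd.

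How mouse 2 was treated changed these counts more than it changed which of the 13 were called. With each array centred on its median, 23 members were higher in kidney and 5 in liver, against 19.5% and 12.4% of all genes. Centring raised the median of all genes by 0.47. With mouse 2 aligned by its bright probes, the counts were 12 and 8, against 8.51% and 12.1%. Without mouse 2 they were 22 and 9 of 73 members, against 20.3% and 15.7%. Scaling the arrays to one spread gave 10 and 9, against 7.04% and 15.3%. Quantile normalization gave 14 and 37, against 11.2% and 60.9% of all genes. All 9 kidney calls were made under each of these 5 treatments. The 4 liver calls were too, except that Uqcrb had an adjusted p of 0.057 after centring (limma).

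Leaving out either of the other mice removed all calls. Without mouse 1, no member of 72 was called in either direction, against 1.84% (kidney) and 4.2% (liver) of all genes, and 7 and 11 members had an unadjusted p under 0.05. Without mouse 3, no member of 80 was called, against 2% and 4.12% of all genes, with 8 and 12 members at an unadjusted p under 0.05.

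The 3 mice gave both their kidney and their liver, so the 6 averages are not independent. The fit that gave the 13 calls treats them as independent. Where both averages of a mouse shift together toward kidney or liver, its SE and p-values, given below for each gene, are too small. As sample over pool, the kidney and liver deviations of a mouse had correlations of -0.575 (mouse 1), -0.789 (mouse 2) and -0.568 (mouse 3) across 7514 genes, which are not independent replicates. With the mouse as a replicate block on this scale of sample over pool, the SE of the 13 called members rose from between 0.20 and 0.29 to between 0.37 and 0.40. Of these 13, Cox4i1 alone remained called (limma, adjusted p = 0.047), while the others had adjusted p from 0.11 to 0.28. With this block, 1 member was called higher in kidney and none in liver by limma (9 and 5 had an unadjusted p under 0.05), against 2.9% and 4.59% of all genes.

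On the scale of kidney over liver the same block gave other results. It takes the shift that both organs of a mouse share out of the error, so the spread between mice no longer counts. All 13 calls were kept there, with SE from 0.085 to 0.12 and adjusted p from 4.0e-07 to 1.7e-05 (limma). In all, 20 of 72 members were then called higher in kidney and 35 in liver, against 17.5% and 64.7% of all genes.

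In other fits the members' counts are likewise read against all genes. Single arrays with a random block gave 11 kidney and 11 liver calls, against 6.67% and 16% of all genes. A variance trend with robust variances gave 11 and 2, against 7.79% and 7.81%. On the kidney arrays alone no member was called by limma (4 and 4 had an unadjusted p under 0.05), against 1.86% and 3.14% of all genes. The liver arrays alone gave 2 and 1, against 3.18% and 5.77%.

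**Figure D2:**
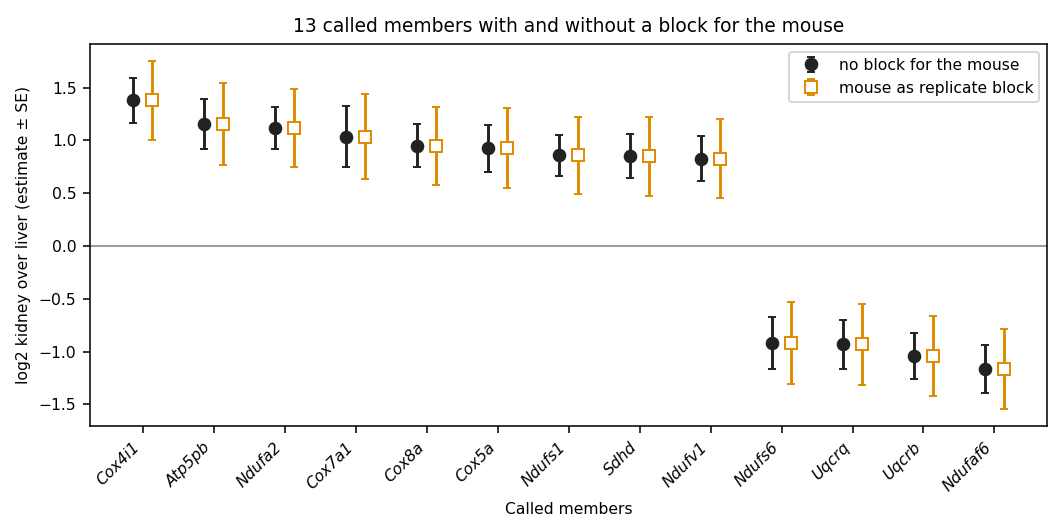
Estimates of log2 kidney over liver with their SE (y axis) for the 13 called members (x axis), fitted without (filled circles) and with (open squares) the mouse as a replicate block in sample over pool. The estimates are the same in both fits, and the SE with the block lie between 0.37 and 0.40.

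Complex I takes electrons from NADH at the tip of its matrix arm (N module), passes them down to ubiquinone (Q module) and pumps protons in its membrane arm. As deposited, 3 of 10 N module members were higher in kidney and 1 in liver, whereas none of 4 Q module and none of 17 membrane arm members was called. The share among all genes was 5.56% for kidney and 8.88% for liver. After centring, 2 membrane arm members were called higher in kidney and 1 in liver, against 19.5% and 12.4% of all genes. Estimates as deposited ranged from -0.79 to -0.29 in the Q module and from -1.06 to 0.68 in the membrane arm. Centred, the Q module ranged from -0.34 (Ndufa9) to 0.16 (Ndufs8). Whether the modules differ was not tested. The median of the 40 genes was -0.31 as deposited, 0.14 after centring, -0.22 with mouse 2 aligned and 0.015 without mouse 2.

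Ndufa2, a small subunit of the N module, had the largest kidney excess of complex I. Its averages were 0.99, 1.11 and 0.69 on the kidney arrays of mice 1, 2 and 3, and 1.40, 1.32 and 1.19 on the liver arrays. All 6 were positive, and mouse 2 was the lowest in neither organ. The estimate was 1.12 (SE 0.20, n = 3 mice per organ, limma adjusted p = 0.0061), a 2.17-fold excess.

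Ndufs1, the largest iron-sulfur subunit, had 0.82, 0.81 and 0.73 on the kidney arrays and 1.12, 0.70 and 0.97 on the liver arrays. Ndufv1, the flavoprotein that binds NADH, had 1.03, 0.71 and 0.67, then 1.11, 1.02 and 0.43. Both were positive in 6 of 6 averages, with no average below 0.43. The estimates were 0.86 (SE 0.20, adjusted p = 0.021) for Ndufs1 and 0.83 (SE 0.21, adjusted p = 0.032) for Ndufv1 (limma). The subunit that binds NADH, its iron-sulfur neighbour and a small partner of the same module were thus each higher in kidney.

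Ndufs6, a zinc-binding subunit of the same module, went the other way. Its averages were -0.53, -1.47 and -0.77 on the kidney arrays and -0.67, -1.57 and -0.49 on the liver arrays. All 6 were negative, with mouse 2 the lowest in both organs. The estimate was -0.92 (SE 0.24, limma adjusted p = 0.040), and -0.62 without mouse 2 (adjusted p = 0.0057). Its probe was dim, and no other called member had dim probes alone.

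Ndufs4, an accessory subunit of the N module, had 3 probes that disagreed. One had all 6 averages negative, from -1.38 to -0.24, and a mean of -0.75. Another had all 6 positive, from 0.15 to 0.70, and a mean of 0.36. The third, a dim probe, had a mean of -0.23 with the mouse 2 averages at -1.23 and -0.96. None of the 3 was called (limma adjusted p = 0.072, 0.21 and 0.54), and the direction of Ndufs4 depends on the probe.

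The largest excess in the membrane arm belonged to Ndufa11, a subunit that contacts complex III in supercomplexes. Its averages were 1.74, -0.75 and 1.23 on the kidney arrays and 1.26, -0.45 and 1.03 on the liver arrays. Mouse 2 was negative and mice 1 and 3 were high, so the estimate of 0.68 had an SE of 0.38 and was not called (limma adjusted p = 0.21). It was called after centring (1.13, adjusted p = 0.0011) and without mouse 2 (1.32, adjusted p = 0.00034).

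Ndufa13, a membrane arm subunit also known as GRIM-19, had the largest liver excess of any subunit of complex I. It had -0.44, -2.15 and -0.49 on the kidney arrays and -0.26, -2.09 and -0.92 on the liver arrays. All 6 were negative, with mouse 2 far below. The estimate of -1.06 was not called (SE 0.33, adjusted p = 0.069), but it was after centring (-0.61, adjusted p = 0.0099) and without mouse 2 (-0.53, adjusted p = 0.025; limma in each case). Ndufa10, another membrane arm subunit, showed little offset in mouse 2, with -0.53, -0.76 and -1.03 on the kidney arrays and -0.33, -0.70 and -0.76 on the liver arrays. Its estimate was -0.69 (SE 0.20, adjusted p = 0.060), and -0.23 after centring (adjusted p = 0.48). It was called higher in liver with mouse 2 aligned (-0.59, adjusted p = 0.044) and without mouse 2 (-0.66, adjusted p = 0.010; limma).

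The 7 assembly factors build complex I without remaining in it. Of these 7, 1 was called, toward liver, against 5.56% (kidney) and 8.88% (liver) of all genes. Ndufaf6 had -0.86, -1.42 and -1.16 on the kidney arrays and -0.68, -1.67 and -1.19 on the liver arrays. Every average was negative and its probe was bright. The estimate was -1.16 (SE 0.22, limma adjusted p = 0.0091), a 2.24-fold excess in liver and the largest of any member in that direction. The other 6 assembly factors ranged from -0.71 (Ndufaf1) to 0.33 (Ndufaf7). Ndufa4l2, a hypoxia-induced relative of the complex IV subunit Ndufa4, was positive in 5 of 5 averages, from 0.018 to 0.96, and was not called as deposited (0.51, SE 0.27, limma adjusted p = 0.20), but it was after centring (1.08, limma adjusted p = 0.0026). Ndufa13, Ndufa10, Ndufa11 and the other uncalled members that are given with their values outside the rule stated in the methods were chosen after these values were seen.

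Complex II oxidises succinate in the citric acid cycle and feeds the electrons to ubiquinone. Both measured subunits were positive in all 6 averages. Sdhd, a membrane anchor with part of the ubiquinone site, had 0.69, 1.27 and 0.60 on the kidney arrays and 0.91, 0.98 and 0.65 on the liver arrays. Mouse 2 was the highest in both organs. The estimate was 0.85 (SE 0.21, limma adjusted p = 0.028). Sdhb, the iron-sulfur subunit, had 0.34, 0.34 and 0.48 on the kidney arrays and 0.59, 0.31 and 0.13 on the liver arrays. Its ratios lay below those of Sdhd in each mouse and organ, and its estimate of 0.37 was not called (SE 0.20, limma adjusted p = 0.20). Sdhb was called after centring (0.82, adjusted p = 0.033).

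Complex III passes electrons from ubiquinol to cytochrome c. Of its 9 tested members 2 were called, both toward liver, against 5.56% (kidney) and 8.88% (liver) of all genes. Both are small subunits that bind near cytochrome b. Uqcrb had -0.73, -1.47 and -1.38 on the kidney arrays and -0.51, -1.18 and -0.97 on the liver arrays. Uqcrq had -0.53, -1.54 and -1.06, then -0.44, -1.32 and -0.70. All 12 averages were negative, and mouse 1 was the nearest to 0 for both genes in both organs. For Uqcrq this order depended on the probe. On the kidney arrays its bright probe had -1.26, -1.12 and -1.06 in mice 1, 2 and 3, and its dim probe had no value in mouse 3. The estimates were -1.04 for Uqcrb (SE 0.22, adjusted p = 0.015) and -0.93 for Uqcrq (SE 0.24, adjusted p = 0.032; limma). The bright probe of Uqcrq taken alone had a mean of -1.01 with mouse 2 at -1.12 and -1.06, close to the other mice, and its dim probe a mean of -0.83 with mouse 2 at -1.95 and -1.77.

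No other member of complex III was called as deposited. Uqcr10, another small subunit, was the highest, with 0.65, 0.19 and 0.74 on the kidney arrays and 0.92, -0.21 and 0.90 on the liver arrays. Mouse 2 was the lowest in both organs, and the estimate of 0.53 (SE 0.24, limma adjusted p = 0.15) was called after centring (0.98, adjusted p = 0.0016) and without mouse 2 (0.80, adjusted p = 0.0013). Uqcrc2, a core protein of the matrix side, was positive in 6 of 6 averages, from 0.19 to 0.62, with a bright probe and an estimate of 0.47 (SE 0.20, adjusted p = 0.14), and it was called after centring (0.92, adjusted p = 0.033). Uqcrc1, its partner, had no value in mouse 2 and was negative in 4 of 4 averages, from -0.87 to -0.25 (estimate -0.54, SE 0.29, adjusted p = 0.20). On these same values it was called higher in liver in the fit without mouse 2 (-0.54, limma adjusted p = 0.025). The median of the 9 genes was -0.40 as deposited, 0.061 after centring, -0.30 with mouse 2 aligned and 0.0095 without mouse 2.

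Uqcrfs1, the Rieske iron-sulfur protein, was the member in which the kinds of arrays differed most. It had 1.26, -0.19 and 0.40 on the kidney arrays but -0.66, -2.61 and -0.63 on the liver arrays. Every average of the kidney arrays lay above every average of the liver arrays. The difference between the kinds was 1.79 with an unadjusted p of 0.026 and an adjusted p of 1 (limma), and its probe was dim. Over all members, none was called for a difference between the kinds of arrays, and 1 of 81 had an unadjusted p under 0.05. Of all 9047 genes, 0% were called and 16 (0.18%) had an unadjusted p under 0.05. This fit had no block for the mouse, so the shift that both organs of a mouse share counted as error. The absence of calls therefore does not show that the kinds agree. With the mouse as a block on kidney over liver, 1 of 72 members was called for such a difference. The share of all genes was not counted in that fit, so this count cannot be read against it.

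**Figure D3:**
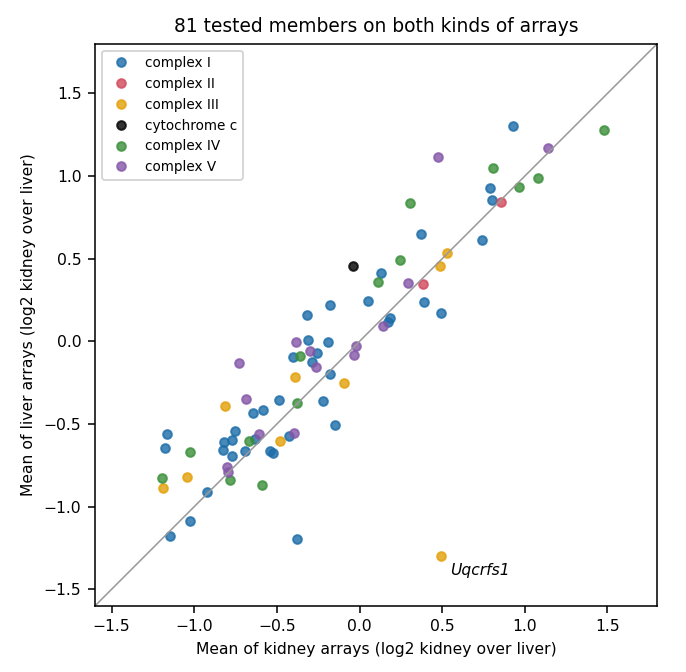
Mean log2 kidney over liver of the 81 tested members on kidney arrays (x axis) against liver arrays (y axis), coloured by complex, with the line of equality. Most points lie near the line, and Uqcrfs1 lies farthest from it, with means of 0.49 and -1.30.

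Cytochrome c carries electrons from complex III to complex IV. Cycs, its somatic gene, had -0.36, 0.36 and -0.12 on the kidney arrays and 0.69, 0.28 and 0.40 on the liver arrays. The averages scattered around 0 and the estimate was 0.21 (SE 0.21, limma adjusted p = 0.45). Its probe was bright, and after centring the estimate was 0.66 (adjusted p = 0.11).

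Complex IV held 4 of the 9 kidney calls and no liver call, among 14 tested members. Of all genes tested, 5.56% were called higher in kidney and 8.88% in liver. Its median was 0.0056 as deposited, 0.46 after centring, 0.098 with mouse 2 aligned and 0.19 without mouse 2. Whether complex IV differs from the other complexes was not tested. Cox4i1, the largest nuclear subunit, which binds ATP as a regulator of the enzyme, had the largest kidney excess of all members. It had 1.25, 1.79 and 1.40 on the kidney arrays and 1.57, 1.39 and 0.88 on the liver arrays. All 6 averages were above 0.8, and its single hybridisations ranged from 0.75 to 1.91. The estimate was 1.38 (SE 0.21, limma adjusted p = 0.0029), a 2.60-fold excess, and its probes had similar means of 1.47 and 1.26.

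Cox5a, a subunit on the matrix side, had 0.74, 1.29 and 0.39 on the kidney arrays and 1.23, 1.24 and 0.67 on the liver arrays. Cox8a, the smallest subunit in its common form, had 0.92, 0.97 and 1.01, then 1.26, 0.93 and 0.61. Both were positive in 6 of 6 averages, with mouse 3 the lowest of Cox5a in both organs. The estimates were 0.93 (SE 0.22, adjusted p = 0.026) for Cox5a and 0.95 (SE 0.20, adjusted p = 0.015) for Cox8a (limma). Cox7b, a small membrane subunit with a bright probe, was positive in 6 of 6 averages, from 0.20 to 1.09, and was not called (0.57, SE 0.20, limma adjusted p = 0.094). It was called with mouse 2 aligned (adjusted p = 0.031) and after centring (adjusted p = 0.020).

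Several complex IV subunits exist as a common form and a form of heart and skeletal muscle. Cox7a1, such a muscle form, had 0.90, 0.77 and 1.57 on the kidney arrays and 1.43, -0.12 and 1.66 on the liver arrays. It was positive in 5 of 6 averages, and the exception was the liver of mouse 2. The estimate was 1.04 (SE 0.29, limma adjusted p = 0.046), and 1.39 without mouse 2 (adjusted p = 0.00040). Cox7a2, its common form, had -0.36, -2.12 and 0.13 on the kidney arrays and -0.35, -1.999 and -0.17 on the liver arrays, and Cox7a2l, a relative that joins complexes III and IV, was positive in 5 of 5 averages, from 0.097 to 0.65. Neither was called as deposited (Cox7a2 -0.81, SE 0.36, adjusted p = 0.15; Cox7a2l 0.37, SE 0.24, adjusted p = 0.27; limma). After centring Cox7a2l was called higher in kidney (0.94, limma adjusted p = 0.016). The difference between the 3 genes was not tested.

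The other muscle forms did not follow Cox7a1. Cox6a2 had -0.034, -2.05 and 0.082 on the kidney arrays and -0.048, -1.65 and -0.11 on the liver arrays. Cox8b had values in 5 averages, from -1.96 to 0.33. Mice 1 and 3 were near 0 for Cox6a2, the mouse 2 averages were the lowest for both genes, and both probes were dim. Their estimates of -0.63 (SE 0.36, adjusted p = 0.21) and -0.85 (SE 0.42, adjusted p = 0.18) were not called (limma). Of 6 striated muscle markers with values, none was called (median -0.69, and -0.16 after centring). The myoglobin gene Mb was at -0.70 and the muscle creatine kinase gene Ckm at -0.67, and neither was called (limma adjusted p = 0.19 and 0.12). After centring, 1 of these markers was called, Tnnt3 at 0.62. The part of muscle RNA in the Cox7a1 value was not tested.

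Cox6a1, the common form beside Cox6a2, had -0.61 and -1.79 on the kidney arrays of mice 1 and 2 and -0.29, -1.69 and -0.50 on the liver arrays. All 5 values were negative, and the estimate of -1.01 was not called (SE 0.32, limma adjusted p = 0.081), the lowest of complex IV. It was called after centring (-0.45, adjusted p = 0.042). Cox6b1, another common form, was between -0.065 and 0.51 (0.24, SE 0.20, adjusted p = 0.36), and Cox6b2, its testis form, between -0.63 and 0.27 (-0.23, SE 0.22, adjusted p = 0.42). Neither pair of isoforms showed a called difference in opposite directions.

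Complex V makes ATP with a rotating head (F1) held by a peripheral stalk and driven by a ring of subunit c. Atp5pb, subunit b of the stalk, was the sole call among 15 tested members, against 5.56% (kidney) and 8.88% (liver) of all genes. It had 1.04, 1.65 and 0.73 on the kidney arrays and 1.26, 1.62 and 0.64 on the liver arrays. All 6 averages were positive, and mouse 2 was the highest in both organs. The estimate was 1.15 (SE 0.24, limma adjusted p = 0.012), a 2.23-fold excess. The median of the complex was -0.19 as deposited, 0.26 after centring, -0.10 with mouse 2 aligned and 0.077 without mouse 2.

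Subunit c is one protein encoded by 3 genes. Atp5g3 had 0.23, 1.11 and 0.093 on the kidney arrays and 1.20, 1.39 and 0.75 on the liver arrays, and its estimate of 0.79 had an adjusted p of 0.055 (SE 0.23, limma). Atp5g1 was negative in 6 of 6 averages but small, from -0.33 to -0.0038 (-0.18, SE 0.19, adjusted p = 0.47). Atp5g2 was negative in mouse 2 and mixed in the others, from -0.82 to 0.39 (-0.19, SE 0.26, adjusted p = 0.56). The ratio of Atp5g3 was the highest of the 3 genes in 5 of 6 averages, and the gene was called with mouse 2 aligned (0.89, adjusted p = 0.030) and after centring (1.25, adjusted p = 0.028).

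A pair of complex V subunits had probes of opposite sign. For Atp5a1, the alpha subunit of F1, a bright probe had 0.97, 1.52 and 0.74 on the kidney arrays and 1.22, 1.62 and 0.81 on the liver arrays. Alone it was called (1.15, SE 0.23, limma adjusted p = 0.013). Its dim probe ranged from -1.86 to 0.59 with the mouse 2 averages the lowest, and the mean of both probes, 0.32, was not called (adjusted p = 0.29). For Atp5o, the stalk subunit that confers oligomycin sensitivity, a bright probe was positive in 5 of 6 averages, from -0.11 to 0.72, and a dim probe was negative in 5 of 5, from -1.75 to -0.35. Neither probe was called (limma adjusted p = 0.19 and 0.10). The lowest member of complex V was Atp5mpl, a small membrane subunit, at -0.34, -1.39 and -0.66 on the kidney arrays and -0.34, -1.38 and -0.65 on the liver arrays (-0.79, SE 0.24, adjusted p = 0.067). Its dim probe alone was called (-0.95, limma adjusted p = 0.048), and its other probe, without a signal class, was not (-0.62, limma adjusted p = 0.14). The gene was called higher in liver with mouse 2 aligned (-0.70, adjusted p = 0.036) and without mouse 2 (-0.50, adjusted p = 0.019; limma). After centring it was not called (-0.34, limma adjusted p = 0.099).

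**Figure D4:**
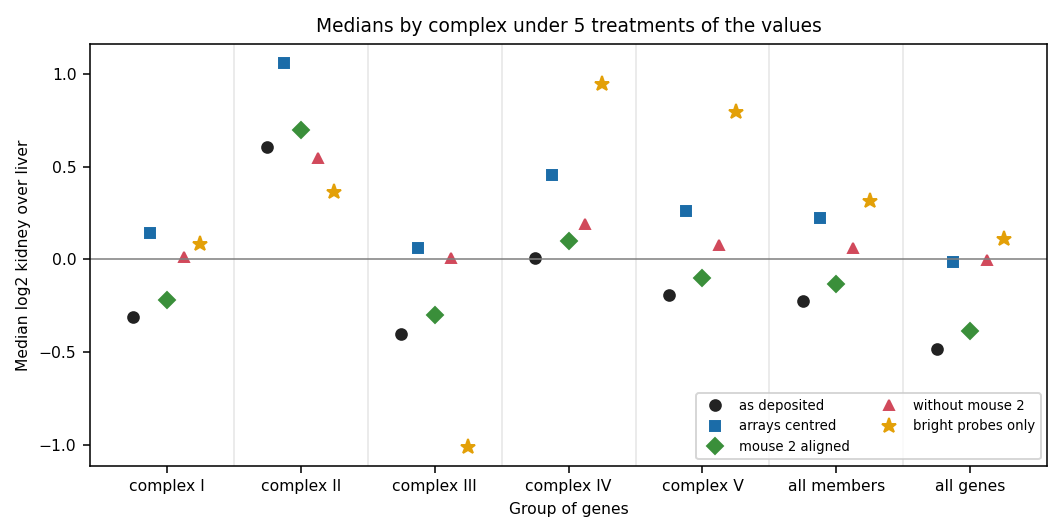
Median log2 kidney over liver (y axis) of complexes I to V, of all members and of all genes tested (x axis) under 5 treatments of the values. The medians of complexes I, III and V and of all members are negative as deposited and positive after centring, and those of complexes II and IV are positive under all 5.

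Across all members the median was -0.23 as deposited, 0.23 after centring, -0.13 with mouse 2 aligned and 0.062 without mouse 2. All genes tested had -0.48, -0.012, -0.39 and -0.0026 in the same order. The sign of the members' median therefore depends on the treatment. In single averages, 15 of 81 members were positive in every average and 15 negative in every average (18.5% each), against 8.91% and 24.3% of all genes tested. In mice 1 and 3, 46 of 81 members had a positive mean.

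The level of a member in mouse 2 followed its signal. Of 80 members with values in mouse 2, 68 were lower there than in mice 1 and 3, of which 34 by more than 1, and 12 were higher. The 23 bright member probes had a median difference of -0.0019 between mouse 2 and the others, the 32 intermediate probes -0.73 and the 30 dim probes -1.53. All probes of the platform had -0.28, -1.08 and -1.49 in the same classes. Of the 9 kidney calls, 5 had a bright probe, 4 an intermediate probe and none a dim probe, and 6 of 9 were higher in mouse 2 than in mice 1 and 3. All 4 liver calls were lower in mouse 2. The part of signal in these calls was not tested.

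With bright probes alone, 23 members could be tested. Of these, 11 were higher in kidney (47.8%) and 3 in liver (13%), against 40.8% and 31.5% of all genes with bright probes. By complex, 4 of 5 bright members were higher in kidney in complex IV, 4 of 5 in complex V, 1 of 8 in complex I, 1 of 3 in complex III and 1 of 1 in complex II. In liver, 2 of 3 were higher in complex III and 1 of 8 in complex I. Called higher in kidney in this fit of 1760 genes, but not in the main fit, were Atp5a1, Atp5g3, Atp5o, Cox7b, Sdhb and Uqcrc2. Atp5g3, Cox7b, Sdhb and Uqcrc2 have 1 probe each, so leaving out dim probes did not change their values. For them the fits differed in the set of genes tested. In the fit over all probes, the bright probe of Atp5a1 was called and that of Atp5o was not (limma adjusted p = 0.013 and 0.19). Bright probes were positive in all 6 averages for 9 of 23 member probes (39.1%), near the 37.5% of all bright probes. They were negative in all 6 for 4 of 23 (17.4%), against 30.5% of all bright probes. A ratio far from most others seldom recurs, so large differences can be classed as bright at any intensity.

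The other genes of the pathway were taken from lists that were drawn up with earlier results of these data known. Their counts are read against the 5.56% of all genes called higher in kidney and the 8.88% called higher in liver as deposited. None of 13 mitochondrially encoded subunits had a probe with their symbol. Of 30 assembly factors tested, 2 were higher in kidney and 1 in liver: Tmem70, which assembles complex V, at 1.32 (SE 0.22, adjusted p = 0.0041), Surf1, which assembles complex IV, at 1.16 (SE 0.27, adjusted p = 0.022), and Bcs1l, which inserts the Rieske protein into complex III, at -1.30 (SE 0.30, adjusted p = 0.021; limma). Of 18 genes of ubiquinone synthesis and electron delivery to ubiquinone, 2 were higher in kidney and 2 in liver. Sqor, which oxidises sulfide, was at 1.32 and Chdh, which oxidises choline, at 1.29. Pdss2, which makes the ubiquinone tail, was at -1.52 and Prodh, the proline dehydrogenase, at -0.99. As deposited the assembly list had a median of -0.28 and the ubiquinone list one of -0.32. After centring these became 0.17 and 0.18.

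Carriers that supply the ATP synthase stood on both sides, with 4 of 9 tested genes higher in kidney and 2 in liver, against 5.56% and 8.88% of all genes. Higher in kidney were the mitochondrial creatine kinase Ckmt1 (1.84), the outer membrane channels Vdac1 (1.55) and Vdac2 (0.76), and the phosphate carrier Slc25a3 (1.33). Higher in liver were Ucp1, the proton leak carrier of brown fat (-2.81, in 5 averages), and Ckmt2, the muscle form of mitochondrial creatine kinase (-1.33, with a dim probe). Ucp1 had too few values for a signal class. The other tested markers of brown and white fat did not follow it: Fabp4 was called higher in kidney (1.535), and Cidea (-0.14) and Adipoq (-0.72) were not called. The adenine nucleotide carriers Slc25a4 (0.35) and Slc25a5 (-0.45) were not called as deposited. After centring Slc25a4 was called higher in kidney (0.80, limma adjusted p = 0.0019), and Slc25a5 was not called. Of 12 regulators of mitochondrial biogenesis and mitochondrial DNA expression, 1 was called as deposited, against the same shares of all genes: Esrra, the nuclear receptor ERR alpha, at 1.03 (SE 0.20, limma adjusted p = 0.010). Its averages were 0.91, 0.75 and 1.09 on the kidney arrays and 1.37, 0.83 and 1.26 on the liver arrays, all positive. Ppargc1a, its coactivator, was at 0.27 (SE 0.25, adjusted p = 0.41), and Nrf1, nuclear respiratory factor 1, at -0.66 with a dim probe (SE 0.46, adjusted p = 0.29; limma). After centring Ppargc1a was called higher in kidney (0.72, limma adjusted p = 0.0037), but with mouse 2 aligned it was not (0.36, limma adjusted p = 0.18). In all, 3 regulators were higher in kidney and 1 in liver after centring, against 19.5% and 12.4% of all genes.

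Promoters from RefSeq (GRCm38.p6) were matched to 68 members by symbol, with 73 promoters of 300 bases, from 250 before to 50 after the start. The letters GCGCATGCG, a core of the site of nuclear respiratory factor 1, stood on either strand of 10 member promoters (13.7%), against 1.75% of all 32851 promoters. AAGATGGCG, a core of the YY1 site, stood in 8 (11%), against 1.4%, and TCAAGGTCA, the site of estrogen-related receptors, in 2 (2.74%), against 0.423%. CCGGAAGT, an ETS site, stood in 4.11% against 3.89%, CCAAT in 46.6% against 37.4%, and TATAAA in 12.3% against 13.6%. None of these 6 motifs contains another. Promoters of 1 gene can overlap, and a match describes letters and not binding.

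The bases before the start of 4 promoters are shown as examples of GCGCATGCG and TCAAGGTCA, in members with estimates below and above 0, none of them among the 13 calls. Capitals mark GCGCATGCG in the first 3 promoters and TCAAGGTCA in the fourth, on either strand, and where both strands match, the overlapping letters are all in capitals.
Cycs, chr6:50566570-50566819 (- strand): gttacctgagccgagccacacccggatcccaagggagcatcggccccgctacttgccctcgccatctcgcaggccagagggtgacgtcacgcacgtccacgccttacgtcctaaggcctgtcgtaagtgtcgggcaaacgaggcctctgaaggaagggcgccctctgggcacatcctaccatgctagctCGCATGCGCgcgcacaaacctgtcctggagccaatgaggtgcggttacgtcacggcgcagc
Cox6a1, chr5:115348959-115349208 (- strand): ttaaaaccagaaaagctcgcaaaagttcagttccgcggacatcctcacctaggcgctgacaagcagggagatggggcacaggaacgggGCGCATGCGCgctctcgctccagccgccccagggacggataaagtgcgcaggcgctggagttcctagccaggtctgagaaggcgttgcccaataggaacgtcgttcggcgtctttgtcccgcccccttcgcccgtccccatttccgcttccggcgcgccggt
Ndufa11, chr17:56717512-56717761 (+ strand): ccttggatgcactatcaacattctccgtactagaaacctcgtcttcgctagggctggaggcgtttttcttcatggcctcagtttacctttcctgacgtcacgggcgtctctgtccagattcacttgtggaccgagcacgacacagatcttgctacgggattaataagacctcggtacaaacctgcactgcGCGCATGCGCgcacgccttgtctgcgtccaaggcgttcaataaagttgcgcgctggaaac
Atp5g3, chr2:73911327-73911576 (- strand): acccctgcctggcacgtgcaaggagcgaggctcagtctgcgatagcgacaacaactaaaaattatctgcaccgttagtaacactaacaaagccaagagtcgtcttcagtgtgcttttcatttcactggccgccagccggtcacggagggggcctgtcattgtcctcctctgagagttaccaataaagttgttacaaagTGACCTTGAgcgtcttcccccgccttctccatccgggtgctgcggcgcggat

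The estimates of the genes with GCGCATGCG had both signs. Cycs was at 0.21, Cox6a1 at -1.01 and Ndufa11 at 0.68. The same letters stood in promoters of Atp5g2 (-0.19), Atp5k (-0.056), Atp5l (-0.78), Ndufa8 (-0.60), Ndufaf5 (0.14), Uqcr11 (-0.60) and Uqcrc1 (-0.54). None of these 10 genes was among the 13 calls. In Ndufaf5, Uqcr11 and Uqcrc1 the match did not lie wholly before the start. TCAAGGTCA stood in promoters of Atp5g3 (0.79) and Sdhd (0.85), of which Sdhd was called higher in kidney. In Sdhd the match did not lie wholly before the start. AAGATGGCG stood in promoters of Atp5j, Atp5j2, Ndufa9, Ndufaf8, Ndufc1, Ndufs4, Ndufs6 and Ndufs7, of which Ndufs6 was called, toward liver. Among these genes the match lay wholly before the start in Atp5j alone.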

How the data were processed

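RNA of kidney and liver was measured on 2-colour cDNA arrays. The deposited values are log2 ratios. Per the labels, the labelling was indirect (Cy3 and Cy5), and GenePix Pro 3.0 gave mean intensities with background subtracted, normalised to a median ratio of 1. The log base came from spacings between frequent values, of which 140 of 144 were log2 values of whole-number ratios (numbers up to 10, tolerance 1e-04). Dyes per sample are not given in the sources used here.

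Deposited ratios were turned to kidney over liver (minus the value on kidney arrays). Probes with 1 symbol in the platform annotation (11723 of 20419) were averaged per gene, and hybridisations per mouse and organ. Symbols of 88 probes kept the platform's name, and the others matched RefSeq. A limma 3.58.1 model (R 4.3.3) with a term for the kind of array took these 6 averages for the 9047 genes measured in 2 or more mice of each organ. All p-values are two-sided, Benjamini-Hochberg adjusted over all genes tested, threshold 0.05. Genes measured in fewer averages were fitted on those they had. On data simulated for this comparison with 9047 genes, 34 of 100 changes of 1 log2 unit and 77 of 100 of 2 were recovered, with 2 false calls. The simulated noise was independent between genes and between averages. It held neither the offset of mouse 2 nor the correlation between the organs of a mouse. The false calls therefore do not measure errors in the real fit.

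The same mice supplied both organs, per the labels, so a fit with the mouse as a replicate block was an alternative, beside centring, alignment of mouse 2 by its bright probes, scaling, quantile normalization, filters, probe rules and leaving out mice. Values in each mouse were named for called members, the highest and lowest member of each complex, members with probes that disagree by over 1, and isoform sets. Members and lists were chosen with earlier results of these data known. Figures used matplotlib 3.10.9.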

Additional observations from a re-analysis of the deposited data

How the results depend on the processing

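For the 13 called members, 163 of 229 values under 18 alternatives stayed past the threshold, 66 lost it and 0 turned direction. The count of kidney calls (9) was 23 after centring, 14 with quantile normalization, 1 with the mouse as a replicate block in sample over pool, 20 with that block on kidney over liver, 0 on kidney arrays alone and 2 on liver arrays alone. Leaving out a mouse gave 0 to 22. The count of liver calls (4) was 8 with mouse 2 aligned, 9 with scaling, 37 with quantile normalization, 0 with the replicate block as sample over pool, 35 with the block as kidney over liver, 11 on single arrays with a random block, 2 with a variance trend and robust variances, 0 on kidney arrays alone and 1 on liver arrays alone. Leaving out a mouse gave 0 to 9. On kidney arrays alone, with 0 calls by limma, 4 and 4 members had an unadjusted p under 0.05. Of 45 complex medians under alternatives, 39 moved by less than the spread of that complex's median between the averages of a mouse and organ. This spread holds the offset of mouse 2, and a median can change sign within it. After centring, complex I went from -0.31 to 0.14, complex III from -0.40 to 0.061 and complex V from -0.19 to 0.26. All of these count among the 39, so that count does not show stable signs. The median of complex II was 1.06 after centring and 0.37 with bright probes, that of complex IV 0.46 and 0.95, that of complex III -1.01 with bright probes and that of complex V 0.79 with bright probes. A difference between the kinds of arrays was called for 1 member with the block as kidney over liver, without a share of all genes to set beside it. The causes were not tested. Precision is limited by 3 mice, by pools without replicates and by dim probes.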
